A study of Mus musculus with 5 samples.

Results

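The p53 target genes described here are 10 genes that the transcription factor p53 is widely known to switch on: Cdkn1a, Mdm2, Ccng1, Phlda3, Aen, Bax, Bbc3, Eda2r, Zmat3 and Trp53inp1. They were taken from a fixed list of symbols, and all 10 were among the 27998 genes of the deposited tables. They were followed in tumour-like epithelial cells, stroma and macrophages of 5 single-cell libraries of mouse pancreas, 1 library per group, so that each tumour could be set against the stroma of the same library. In late KPfC 0 of 10 members were at least 2-fold higher than in stroma and 4 lower, beside 18.2% and 15.8% of all measured genes. Of these 4, Eda2r had enough counts only through the stroma and is no support, and Mdm2 was 3.72-fold lower in tumour-like cells. In late KIC 4 of the 9 members with enough counts were at least 2-fold higher and 0 lower, beside 19.0% and 13.3%. Of these 4, Aen and Bbc3 had enough counts only through the tumour-like cells and are no support, and Cdkn1a was 3.11-fold higher. Late KPC combined a 2.17-fold higher Cdkn1a with a 4.6-fold lower Mdm2.

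The groups were a late KPfC tumour at 60 days of age on a C57BL/6 background, a late KPC tumour at 6 months, a late KIC tumour at 60 days, an early KIC tumour at 40 days and a normal pancreas at 60 days. All but late KPfC were on a mixed background of C57BL/6 and FVB, and no mouse was treated. As these strain names are generally used, pancreatic epithelial cells have the floxed Trp53 gene deleted in KPfC, carry Trp53 with a point mutation in KPC, and lack the Cdkn2a locus in KIC while Trp53 is left in place. The recombinase acts in pancreatic epithelium and not in fibroblasts or macrophages. RNA was counted with the 10x Chromium droplet method, which tags the 3' end of each transcript with a unique molecular identifier (UMI). Age, strain, model and the sex seen in sex-linked RNA cannot be told apart between libraries. Every interval below is an exact interval at 95% that covers counting error in these libraries, not differences between animals.

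p53, encoded by Trp53, is held low in unstressed cells because Mdm2 marks it for degradation. DNA damage or oncogene activity releases it, and it then activates genes that stop the cell cycle, favour cell death, repair DNA or feed back on p53 itself, Mdm2 among them. The Cdkn2a locus encodes a protein that restrains Mdm2, so loss of that locus and loss of Trp53 are known to disable the same pathway at different points. Many of the target genes, Cdkn1a above all, are also known to be switched on by other factors.

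The libraries held 938 to 3534 cell barcodes and 3488871 to 26749820 UMIs, and 836 to 3529 cells per library were kept. Median depth was 7592 UMIs per cell in late KPfC, 1957.5 in late KPC, 9331.5 in late KIC, 1776 in early KIC and 4224.5 in normal pancreas. Any pair of libraries shared at most 17 barcodes. Late KIC held 344 cells in which Xist but no Y-linked gene was counted, 272 with the reverse, and 42 with both. Normal pancreas held 658, 123 and 12 such cells. Late KPfC held 0, 1734 and 1, late KPC 737, 0 and 0, and early KIC 2925, 1 and 3. Cells of both kinds were thus counted in large numbers only in late KIC and normal pancreas, and pooling of animals was not stated in the sources used. Late KPfC carried Y-linked RNA, and late KPC and early KIC Xist, so comparisons between them also cross sex. Clusters were named from marker genes, and the names rest on transcripts alone. Tumour-like cells numbered 495 in late KPfC, 61 in late KPC, 281 in late KIC, 355 in early KIC and 9 in normal pancreas, too few there for a ratio.

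Late KPfC and late KPC shared a cluster of tumour-like cells, while most of those of late KIC and of early KIC lay in others. In late KPfC 485 of 495, in late KPC 60 of 61 and in late KIC 36 of 281 lay in 1 cluster led by Tff1, Krt7 and Epcam. In late KIC 245 of 281 lay in a cluster led by Mcpt8, Npy, F2r, Hmga2 and Krt18 that carries mesenchymal markers; Mcpt8 is on the list of 5 mast cell and basophil markers, of which 2 were detected in tumour-like cells of late KIC, with a summed level of 504 CPM (UMIs per 1000000 UMIs of the class), and Cpa3, Kit and Fcer1a were at 0. In early KIC 348 of 355 lay in a cluster led by Wfdc18 and Ambp, which also held the 9 epithelial cells of normal pancreas. Its 10 leading genes included 0 of the listed epithelial markers. The name tumour-like therefore does not separate tumour cells from normal epithelium in early KIC. The fibroblast class numbered 183 cells in late KPfC, 102 in late KPC, 85 in late KIC, 1389 in early KIC and 442 in normal pancreas. The label does not hold throughout: a cluster with mesothelial markers (Upk3b, Nkain4) made up 160 of these cells in late KPfC, 50 in late KPC, 36 in late KIC, 36 in early KIC and 45 in normal pancreas, so the class is called stroma here. Macrophage-like cells numbered 1752 in late KPfC, 524 in late KPC, 302 in late KIC, 765 in early KIC and 50 in normal pancreas. A further 111 cells of late KPfC and 39 of late KPC stayed unnamed and were left out. Those of late KPfC scored highest for epithelial markers (mean log2 excess 2.49), close to red cell markers (2.41). Gkn1 and mitochondrial genes were among their leading genes. Whether they are tumour-like cells was not tested.

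The p53 response element is a pair of decamer half-sites, and stretches of the promoters that hold one are shown to place the members' best known regulator beside their values. RefSeq windows of GRCm38.p6, from 250 bases before to 50 after a transcription start, were found for 8 of the 10 members; Zmat3 and Trp53inp1 had none. Capitals mark bases that match the consensus p53 half-site, which reads the same on both strands; no other motif was searched.
Cdkn1a, chr17:29090876-29090967, + strand: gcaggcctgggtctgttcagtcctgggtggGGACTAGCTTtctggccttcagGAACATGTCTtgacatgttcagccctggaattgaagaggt
Mdm2, chr10:117710905-117710974, - strand: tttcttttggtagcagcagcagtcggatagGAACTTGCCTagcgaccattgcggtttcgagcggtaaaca
Ccng1, chr11:40755432-40755501, - strand: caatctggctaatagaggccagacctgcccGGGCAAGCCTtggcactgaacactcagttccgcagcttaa
Bax, chr7:45467060-45467129, - strand: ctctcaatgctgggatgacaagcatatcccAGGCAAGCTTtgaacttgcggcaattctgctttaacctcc

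A half-site was present in 5 of these 8 genes, the 4 shown and Aen, and in 6 of their 12 windows, against 2745 of 32851 windows of the same length over all genes (8.36%). Cdkn1a had 2 windows, and the one shown was the only window of the members with a full element. Its half-sites start 73 and 51 bases before the transcription start of that window, with a spacer of 12 bases. The window of the other Cdkn1a start held 0 half-sites. Of all 32851 windows, 24 (0.073%) held a full element. No half-site lay in the windows of Phlda3, Bbc3 and Eda2r, which says only that these letters are not there. A match is a description of the sequence and was not tied to any value below.

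**Figure D1:**
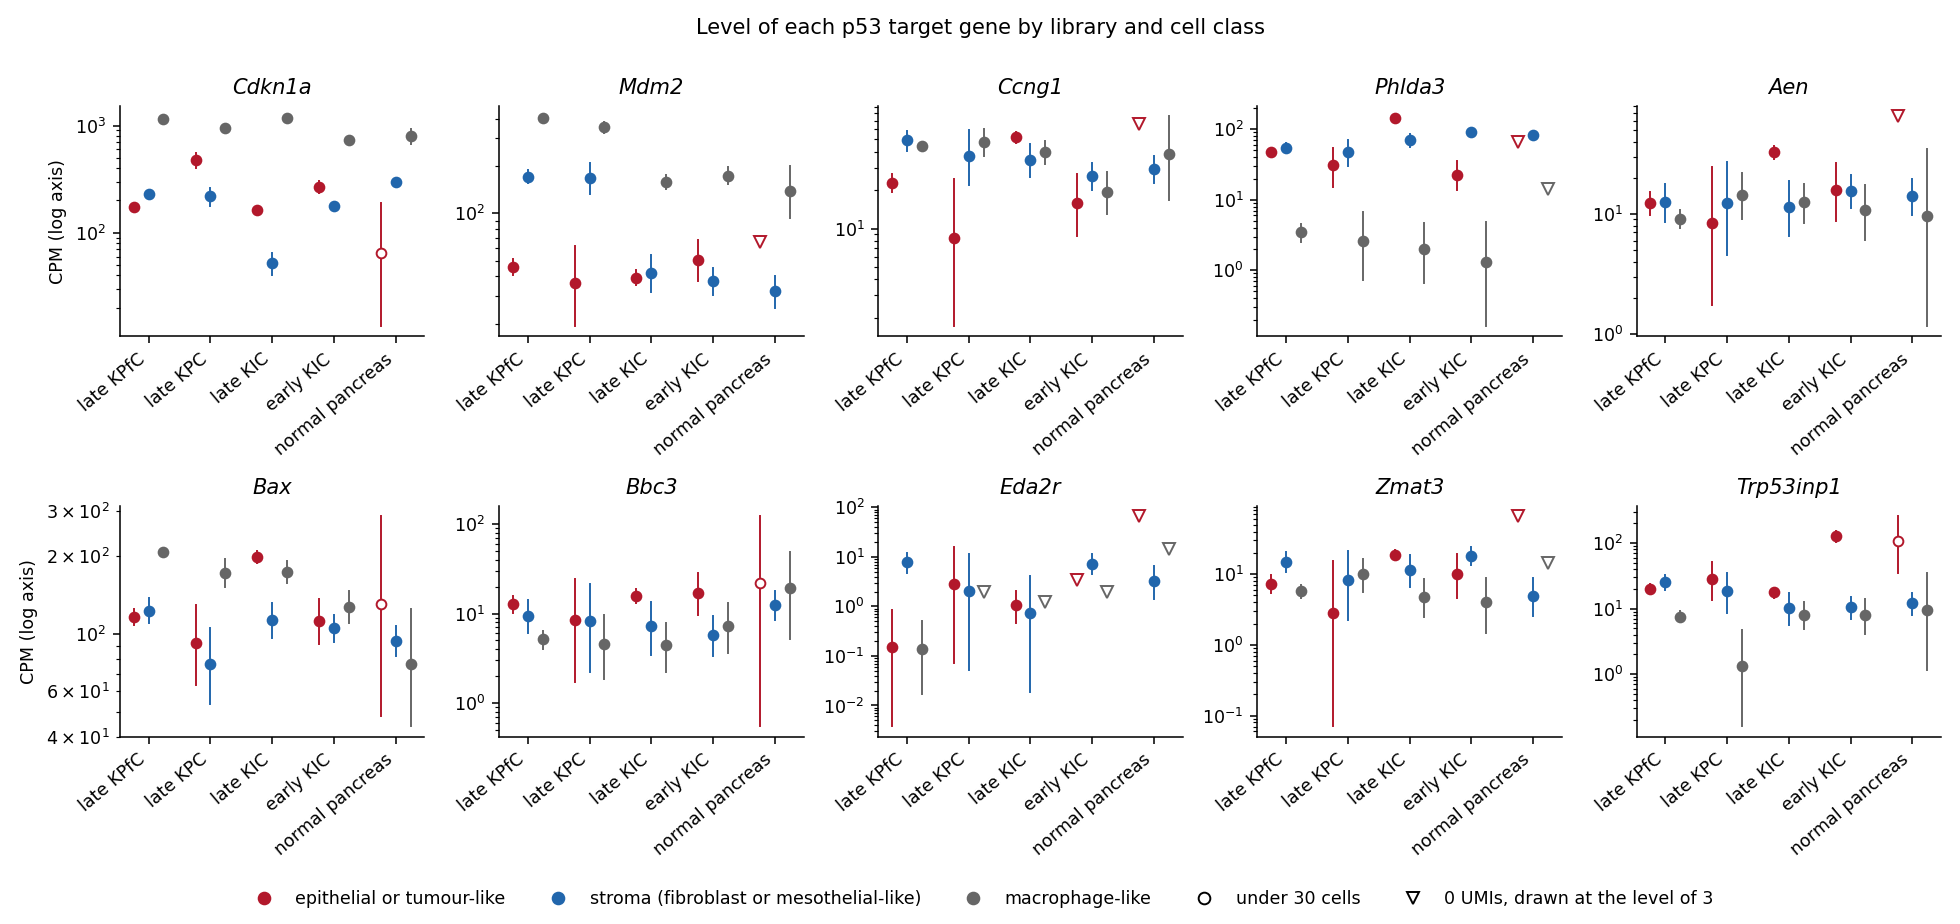
Level of each of the 10 p53 target genes in CPM (UMIs of the gene per 1000000 UMIs of the class, log axis) in epithelial or tumour-like cells, stroma and macrophage-like cells of the 5 libraries; bars are exact intervals at 95% for counting error, open circles classes with under 30 cells and triangles 0 UMIs drawn at the level of 3. Cdkn1a and Mdm2 are highest in macrophage-like cells of every library, and Phlda3 is highest in tumour-like cells of late KIC (144 CPM).

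Levels are UMIs of a gene per 1000000 UMIs of its class, summed over the cells of a library (CPM), and are compared between classes and libraries but not between genes. A fraction of cells expressing a gene and the amount per cell are not separated by this measure. Cdkn1a (chr17:29090976-29100727, + strand) encodes p21, the inhibitor of cyclin-dependent kinases through which p53 arrests the cell cycle. In tumour-like cells it stood at 175 CPM in late KPfC (165 to 185), 475 in late KPC (406 to 552), 162 in late KIC (153 to 171) and 269 in early KIC (236 to 305). Late KPC was thus highest and late KPfC and late KIC were close, with overlapping intervals. In stroma it stood at 229.9 CPM in late KPfC (212 to 249), 219 in late KPC (179 to 264), 52.0 in late KIC (40.7 to 65.4), 177 in early KIC (162 to 193) and 299.6 in normal pancreas (278 to 322). Here late KIC was the low one, its interval below those of the other 4 libraries. The tumour over stroma ratio was 0.761 in late KPfC (0.688 to 0.842), 2.17 in late KPC (1.69 to 2.8), 3.11 in late KIC (2.45 to 4.0) and 1.52 in early KIC (1.29 to 1.78). Of the 4 tumours, late KPfC alone had less Cdkn1a in tumour-like cells than in stroma.

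Mdm2 (chr10:117688875-117710758, - strand) encodes the ubiquitin ligase that degrades p53. Its level in tumour-like cells was 45.9 CPM in late KPfC (40.9 to 51.4), 36.3 in late KPC (19.3 to 62.1), 39.2 in late KIC (34.9 to 43.9) and 51.0 in early KIC (37.2 to 68.3), with all 4 intervals overlapping. In stroma it was 171 CPM in late KPfC (155 to 188) and 167 in late KPC (133 to 208), against 41.9 in late KIC (31.8 to 54.1), 37.4 in early KIC (30.5 to 45.3) and 32.0 in normal pancreas (25.2 to 40.0). The stroma therefore fell into a high pair, late KPfC and late KPC, and a low group of 3. Tumour-like cells were 3.72-fold below their stroma in late KPfC (3.21 to 4.32) and 4.6-fold below in late KPC (2.54 to 9.01). The ratio was 0.937 in late KIC (0.705 to 1.26) and 1.37 in early KIC (0.94 to 1.96), both intervals spanning 1. Between libraries the stroma, not the tumour-like cells, thus carried the difference in the Mdm2 ratio. Stroma without mesothelial markers was lower in Mdm2 than stroma with them in all 3 late tumours: 94.1 against 183 CPM in late KPfC, 91.8 against 198 in late KPC and 25.1 against 67.5 in late KIC. Counted against stroma without these markers, the log2 ratio was -1.03 in late KPfC, where 23 such cells were left, -1.34 in late KPC and 0.65 in late KIC.

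Macrophage transcripts were counted in tumour-like cells and stroma alike. Of 18 macrophage markers, 14 to 18 were detected in tumour-like cells of the 4 tumours, with summed levels of 1357 to 6641 CPM, and 13 to 18 in their stroma, with 2167 to 4412 CPM, against 24206 to 36872 CPM in macrophage-like cells. Adgre1, Fcgr1, Ccr2 and Ly6c2 were at 0 in tumour-like cells of late KPC, and Fcgr1 and Ly6c2 in those of early KIC. The summed level of C1qa, C1qb and C1qc, complement genes of macrophages, stood in tumour-like cells at 3.42% of the macrophage level in late KPfC, 0.894% in late KPC, 0.985% in late KIC and 2.31% in early KIC. That share of the macrophage level equals 22.5% of the Cdkn1a and 30% of the Mdm2 in tumour-like cells of late KPfC, against 18.6% and 8.77% of those in its stroma. With each class's share subtracted, the log2 ratio in late KPfC was -0.47 for Cdkn1a and -2.28 for Mdm2, beside -0.39 and -1.90 without subtraction.

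Ccng1 (chr11:40748552-40755311, - strand) encodes cyclin G1, which takes part in the p53 and Mdm2 feedback loop. Tumour-like cells had 22.7 CPM in late KPfC (19.3 to 26.7), 8.38 in late KPC from 3 UMIs (1.73 to 24.5), 51.6 in late KIC (46.6 to 57.0) and 15.9 in early KIC (8.68 to 26.6). Stroma had 49.0 CPM in late KPfC, 37.1 in late KPC, 34.6 in late KIC, 25.8 in early KIC and 29.1 in normal pancreas. Late KIC was the library with the high tumour level and late KPfC the one with the high stroma level. The gene was 2.15-fold lower in tumour-like cells than in stroma in late KPfC (1.68 to 2.75) and 4.43-fold lower in late KPC (1.29 to 23.5). It was 1.49-fold higher in late KIC (1.1 to 2.06), and in early KIC the ratio was 0.616 (0.321 to 1.1).

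Phlda3 (chr1:135766119-135769136, + strand) encodes a small membrane-lipid binding protein that restrains Akt. It was low in macrophages: macrophage-like cells held 3.45 CPM in late KPfC, 2.64 in late KPC, 2.01 in late KIC and 1.33 in early KIC, and 0 UMIs in normal pancreas. Tumour-like cells had 47.4 CPM in late KPfC (42.3 to 53), 30.7 in late KPC (15.3 to 55.0), 144 in late KIC (136 to 153) and 22.7 in early KIC (13.8 to 35.0). Stroma had 54.1 CPM in late KPfC, 47.4 in late KPC, 70.0 in late KIC, 92.9 in early KIC and 83.1 in normal pancreas. Tumour-like cells of late KIC stood above every stroma, and those of early KIC below every stroma except that of late KPC, whose interval (30.1 to 71.2) overlapped theirs. The ratio was 2.06 in late KIC (1.67 to 2.56), and the gene was 4.1-fold lower in tumour-like cells than in stroma of early KIC (2.6 to 6.82). It was 0.877 in late KPfC (0.715 to 1.08) and 0.648 in late KPC (0.285 to 1.38), both spanning 1. With each cell thinned to 1000 UMIs, 12.1% of tumour-like cells and 5.88% of stroma cells of late KIC had a Phlda3 UMI, and 0 of 302 macrophage-like cells had. In late KPfC these shares were 4.04% of tumour-like, 3.28% of stroma and 0.4% of macrophage-like cells. Unthinned, 76.9% of tumour-like cells of late KIC, 43.5% of its stroma and 1.66% of its macrophage-like cells had one, at median depths of 20988, 14712 and 7294 UMIs.

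Among the cell death genes, Bax (chr7:45461697-45466898, - strand) encodes the protein that opens the outer mitochondrial membrane. Tumour-like cells had 116 CPM in late KPfC, 92.2 in late KPC, 198 in late KIC (188 to 209) and 112 in early KIC, so late KIC stood above the rest. Stroma stayed between 76.3 CPM in late KPC and 123 in late KPfC. The ratio was 1.75 in late KIC (1.48 to 2.08), 0.942 in late KPfC, 1.21 in late KPC and 1.07 in early KIC, the last 3 with intervals that span 1. Exons of Bax overlap an annotated gene, Gm45808, on the same strand, and exons of Cdkn1a overlap AC167363.2 on the other; the sources used here do not give whether counting was stranded, so UMIs of these genes could be shared.

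Aen (chr7:78895854-78911209, + strand) encodes a nuclease that takes part in apoptosis. It had 12.3 CPM in tumour-like cells of late KPfC (9.82 to 15.3), 8.38 in late KPC from 3 UMIs, 32.9 in late KIC (28.9 to 37.2) and 15.9 in early KIC (8.68 to 26.6). Stroma stayed within 11.5 and 15.6 CPM in all 5 libraries, so the difference in the ratio came from tumour-like cells. The ratio was 2.85 in late KIC (1.72 to 5.06), 0.977 in late KPfC (0.642 to 1.52) and 1.02 in early KIC (0.514 to 1.9). Bbc3 (chr7:16308393-16318205, + strand), which encodes the Bcl2 antagonist Puma, had 12.7 CPM in tumour-like cells of late KPfC, 8.38 in late KPC from 3 UMIs, 15.7 in late KIC and 17.0 in early KIC. In stroma it had 5.81 to 12.5 CPM. The ratio was 2.18 in late KIC (1.14 to 4.66), 2.93 in early KIC (1.35 to 6.33) and 1.33 in late KPfC (0.839 to 2.2).

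Eda2r (chrX:97333840-97377216, - strand), a receptor of the tumour necrosis factor family that binds ectodysplasin A2, was close to the limit of detection. Tumour-like cells held 1 UMI in late KPfC, 1 in late KPC, 8 in late KIC and 0 in early KIC. Stroma had 7.9 CPM in late KPfC (4.82 to 12.2), 7.26 in early KIC (4.43 to 11.2), 3.32 in normal pancreas, and 1 UMI each in late KPC and late KIC. Most of its UMIs outside late KIC lay in stroma. From that 1 UMI, tumour-like cells of late KPfC were 52.4-fold lower than stroma with an interval of 8.39 to 2174, and those of early KIC at least 2.13-fold lower, taking 3 UMIs in place of 0, with an exact bound of 1.58.

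Zmat3 (chr3:32334792-32366014, - strand) encodes an RNA-binding zinc finger protein. Tumour-like cells had 7.23 CPM in late KPfC (5.33 to 9.58), 2.79 in late KPC from 1 UMI, 18.6 in late KIC (15.7 to 22.0) and 10.2 in early KIC (4.67 to 19.4). Stroma had 15 CPM in late KPfC, 8.25 in late KPC, 11.5 in late KIC, 18.1 in early KIC and 4.99 in normal pancreas. It was 2.08-fold lower in tumour-like cells than in stroma of late KPfC (1.32 to 3.24), and the interval spanned 1 in late KIC (1.61, 0.959 to 2.9) and early KIC (0.562, 0.243 to 1.16). Trp53inp1 (chr4:11156431-11174379, + strand) is a stress protein that acts in autophagy and cell death. Tumour-like cells had 20.2 CPM in late KPfC (16.9 to 23.9), 27.9 in late KPC (13.4 to 51.4), 17.6 in late KIC (14.7 to 20.8) and 126 in early KIC (104 to 152). Stroma had 25.3 CPM in late KPfC, 18.6 in late KPC, 10.1 in late KIC, 10.5 in early KIC and 12.0 in normal pancreas. Early KIC was thus above the 3 late tumours in tumour-like cells and not in stroma, while the 9 epithelial cells of normal pancreas had 109 CPM from 5 UMIs (35.4 to 254). The ratio to stroma was 12.0 in early KIC (7.89 to 18.7), 0.798 in late KPfC (0.588 to 1.09) and 1.74 in late KIC (1.0 to 3.26). Acinar transcripts were counted in all classes of early KIC: 10 acinar markers summed to 29187 CPM in tumour-like cells and 26059.7 in stroma, against 41.9 to 589 CPM in tumour-like cells of the late tumours. Acinar-like cells of early KIC had 38.9 CPM of Trp53inp1, below its tumour-like cells; the part of acinar RNA in this difference was not tested.

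**Figure D2:**
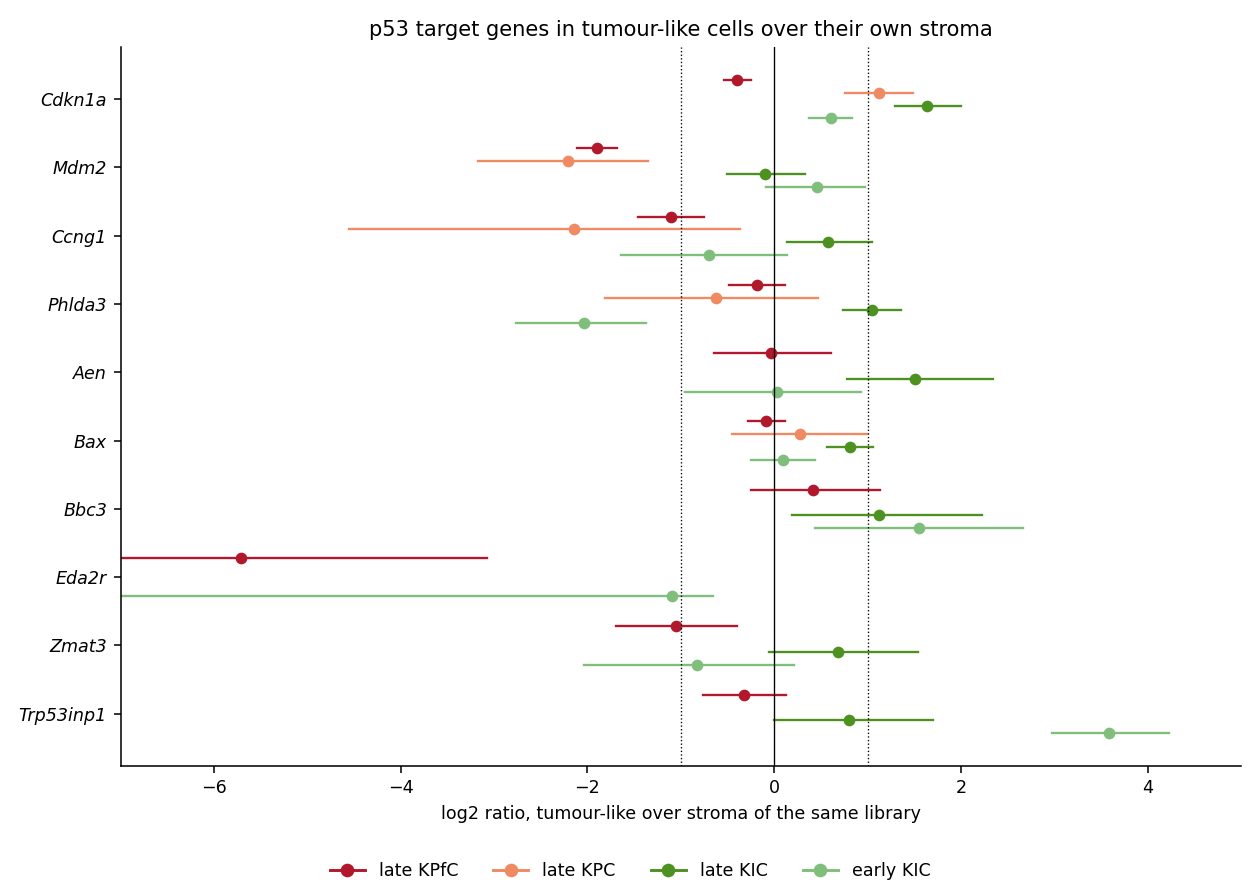
Log2 ratio of each p53 target gene in tumour-like cells over stroma of the same library, for the 4 tumour libraries, where at least 20 UMIs were counted over both classes; bars are exact intervals at 95% and dotted lines mark 2-fold. Late KPfC lies at or left of 0 for all members but Bbc3, and late KIC at or right of 0 for all but Mdm2.

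A member was counted as higher or lower where the ratio was at least 2-fold with at least 20 UMIs over both classes. All 10 members could be measured in late KPfC, and 0 were higher and 4 lower in tumour-like cells than in stroma (Mdm2, Ccng1, Eda2r and Zmat3), where 18.2% of 11846 genes were higher and 15.8% lower. Their median log2 ratio was -0.36, beside 0.14 over all genes. In late KPC 5 members could be measured, 1 higher (Cdkn1a) and 2 lower (Mdm2 and Ccng1), where 25.9% of 4956 genes were higher and 14.5% lower; the median was -0.63, beside 0.33. In late KIC 4 of 9 were higher (Cdkn1a, Aen, Bbc3 and Phlda3) and 0 lower, where 19.0% of 11158 genes were higher and 13.3% lower, with a median of 0.81 beside 0.21. In early KIC 2 of 10 were higher (Trp53inp1 and Bbc3) and 2 lower (Phlda3 and Eda2r), where 23.1% of 10059 genes were higher and 14.8% lower, with a median of 0.06 beside 0.33. At 61 tumour-like cells late KPC left Aen, Bbc3, Eda2r, Zmat3 and Trp53inp1 unmeasured over stroma. Eda2r reached the 20 UMIs only through the stroma in late KPfC (1 UMI in tumour-like cells against 20) and early KIC (0 against 20), as Ccng1 did in late KPC (3 against 18), so these had to differ and their counts are no support. Mdm2 in late KPC also had under 20 UMIs in tumour-like cells (13 against 81). In late KIC, Aen and Bbc3 reached 20 UMIs only through tumour-like cells, where they are high, so the count of 4 is no support. Its stroma with and without mesothelial markers held 7 and 9 UMIs of Aen, and 4 and 6 of Bbc3. With 5 to 10 members measured, these counts describe the members and carry no test. The median turned positive in late KPC (0.54, with 1 member lower) without stroma that carries mesothelial markers. Only Cdkn1a (1.82), Mdm2 (-1.34) and Bax (0.54) could then be measured, as Ccng1 and Phlda3 fell under 20 UMIs. The median also turned positive after thinning to 1000 UMIs per cell, in late KPfC (0.05) and late KPC (0.53), where few members could be measured.

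Lists of general cell state were read in the same way. The 12 immediate early and heat shock genes are known to rise when tissue is dissociated. In late KPfC 0 were higher and 4 lower, beside 18.2% and 15.8% of all genes. Their median log2 ratio there was -0.92, beside 0.14 over all genes. In late KPC 3 were higher and 0 lower, beside 25.9% and 14.5%, with a median of 0.48 beside 0.33. In late KIC 0 were higher and 2 lower, beside 19.0% and 13.3%, with a median of -0.43 beside 0.21. In early KIC 2 were higher and 2 lower, beside 23.1% and 14.8%, with a median of -0.46 beside 0.33. Over stroma, the list was low in late KPfC, where Cdkn1a was low, and near the values of all genes in late KPC, where Cdkn1a was high. In late KIC and early KIC its median was negative while Cdkn1a lay above the stroma. Between tumour-like cells, 7 of the 12 were higher in late KPC over late KIC and 6 over late KPfC, beside 23.6% and 15.4% of all genes. For the late KPC ratio relative to late KIC 8 were higher, beside 22.5%. In these comparisons 0 were lower, beside 10.6%, 9.66% and 8.09%. In late KPfC over late KIC 1 was higher and 0 lower, beside 16.2% and 9.48%. The part of these genes in the Cdkn1a ratios was not tested. Of the 12 cell cycle genes, 4 were higher in tumour-like cells of late KPfC, 1 in late KIC and 9 in early KIC. The shares of all genes were 18.2%, 19.0% and 23.1%. In these 3 libraries 0 cell cycle genes were lower, beside 15.8%, 13.3% and 14.8% of all genes. In late KPC 8 could be measured, with 1 higher and 1 lower, beside 25.9% and 14.5% of all genes.

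Trp53 itself was counted at 22.4 CPM in tumour-like cells of late KPfC (19.0 to 26.3), 69.8 in late KPC (45.2 to 103), 83 in late KIC (76.7 to 89.8) and 94.1 in early KIC (74.9 to 117). In stroma it was at 59.2 CPM in late KPfC, 22.7 in late KPC, 39.0 in late KIC, 38.1 in early KIC and 40.3 in normal pancreas. Tumour-like cells were 2.64-fold below their stroma in late KPfC (2.09 to 3.33) and 3.08-fold above in late KPC (1.46 to 6.93), 2.13-fold above in late KIC (1.61 to 2.87) and 2.47-fold above in early KIC (1.83 to 3.33). Late KPfC was thus the library with less Trp53 RNA in tumour-like cells than in stroma. The sources used here do not give which exons are removed, and UMIs come from the 3' end, so these UMIs do not check the allele. Mdm4, which encodes a relative of Mdm2 that blocks p53, had ratios of 1.22 in late KPfC, 1.02 in late KPC, 0.896 in late KIC and 1.53 in early KIC. Cdkn2a had 671 CPM in tumour-like cells of late KPfC, 461 in late KPC, 71.7 in late KIC and 1.13 in early KIC; it is among the markers used to name mesenchymal tumour-like cells, so its level there is no finding. In late KIC, a model generally described as lacking the locus, these 543 UMIs stood above the 10.1 CPM of its stroma; as for Trp53, the exons removed were not known here, so they do not check the allele.

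The Trp53-altered tumours were then set against late KIC, whose Trp53 gene is unaltered in the model, as the ratio of the tumour over stroma ratios. All 3 such comparisons share the late KIC library. In late KPfC 0 of 9 measured members were at least 2-fold higher and 7 at least 2-fold lower than in late KIC, where 11.3% of 10680 genes were higher and 13.2% lower. The median log2 value was -1.54 for the members and -0.07 for all genes. The intervals of 8 of the 9 lay below 1, a share that was not computed over all genes. Aen, Zmat3 and Trp53inp1, which are among the 7, reached 20 UMIs in late KIC only through tumour-like cells. They are high there, so the count of 7 is no support. Relative to late KIC the ratio of late KPfC was 0.244 for Cdkn1a (0.186 to 0.317), 0.287 for Mdm2 (0.205 to 0.397), 0.299 for Zmat3 (0.143 to 0.611) and 0.312 for Ccng1 (0.208 to 0.464). It was 0.343 for Aen (0.168 to 0.686), 0.426 for Phlda3 (0.316 to 0.574), 0.459 for Trp53inp1 (0.227 to 0.881) and 0.538 for Bax (0.433 to 0.667). For Bbc3 it was 0.613 and the interval spanned 1 (0.249 to 1.42). In the other settings tried, 6 to 8 members were at least 2-fold lower, except that 1 was after thinning to 1000 UMIs per cell, which left few members measurable.

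In late KPC 0 of 5 measured members were higher and 3 lower than in late KIC, where 22.5% of 4918 genes were higher and 8.09% lower. The 3 were Ccng1, Mdm2 and Phlda3, with 3, 13 and 11 UMIs in tumour-like cells of late KPC against 18, 81 and 23 in its stroma. They were measured there mainly through the stroma, where they are high, so the count of 3 is no support. The ratio relative to late KIC was 0.152 for Ccng1 (0.028 to 0.555), 0.232 for Mdm2 (0.112 to 0.458), 0.315 for Phlda3 (0.135 to 0.699), 0.69 for Bax (0.407 to 1.17) and 0.698 for Cdkn1a (0.49 to 0.995). Cdkn1a, for which late KPfC was 4.09-fold below late KIC, was thus 1.43-fold below it in late KPC. In early KIC 1 of 9 was higher (Trp53inp1, 6.88, 3.2 to 14.3) and 5 lower, where 23.1% of 9413 genes were higher and 12.4% lower. Phlda3 was furthest below, at 0.119 (0.0685 to 0.199), followed by Zmat3 at 0.349, Aen at 0.357, Ccng1 at 0.414 and Cdkn1a at 0.488. Early KIC, in which Trp53 is also unaltered in the model, thus lay below late KIC for 5 members, as late KPfC did for 7. Both counts include Aen and Zmat3, measured in late KIC only through tumour-like cells, so neither is support.

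**Figure D3:**
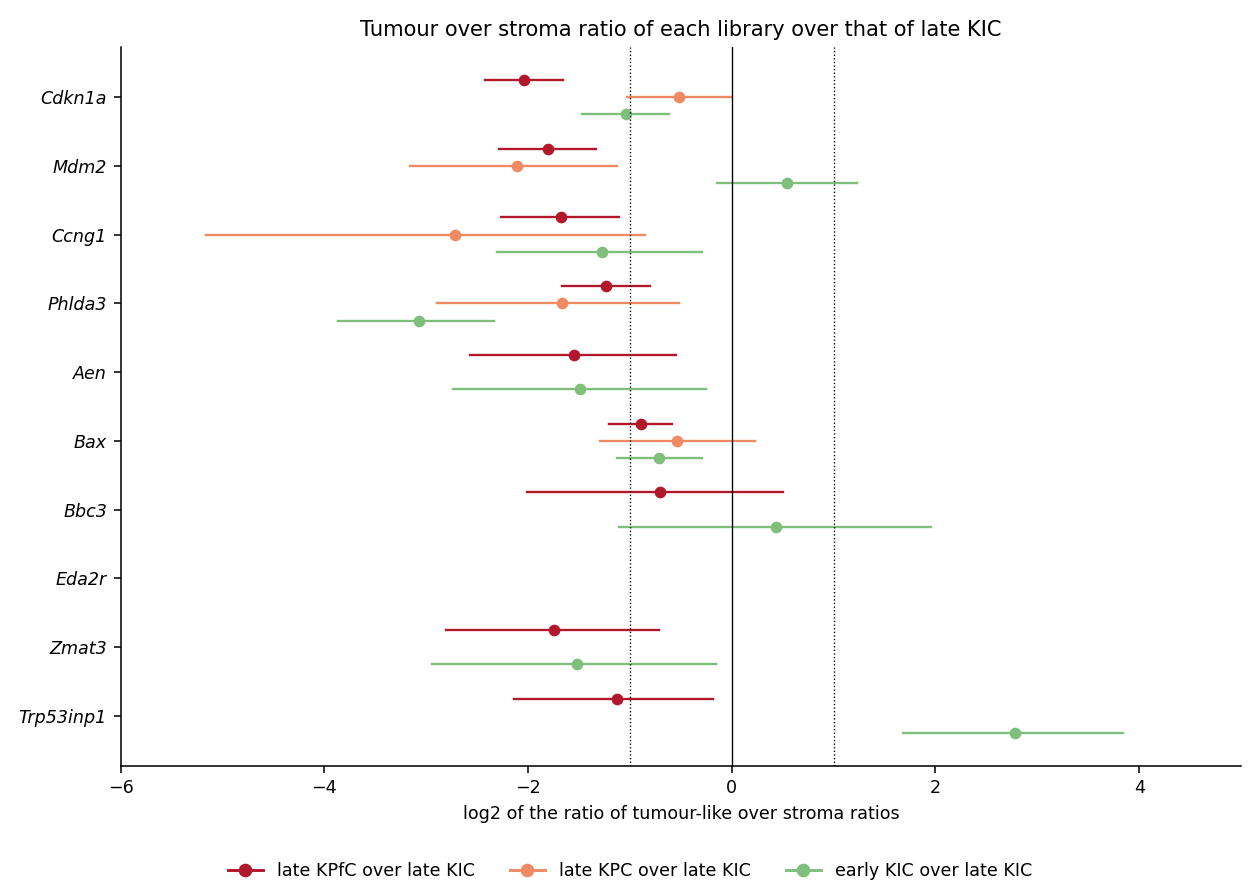
Tumour over stroma ratio of late KPfC, late KPC and early KIC, each over that of late KIC (log2), with exact intervals at 95%; genes with under 20 UMIs in either library are not drawn, and all 3 comparisons share late KIC. The 9 late KPfC points all lie left of 0, and Trp53inp1 of early KIC lies furthest right, at 2.78.

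Whether these differences lay in the tumour-like cells or in the stroma was read from the tumour-like cells alone. In late KPfC over late KIC 0 of 9 measured members were higher and 4 lower, where 16.2% of 12126 genes were higher and 9.48% lower. Phlda3 was 3.04-fold lower in late KPfC, Aen 2.66-fold, Zmat3 2.57-fold and Ccng1 2.27-fold. Bax was 1.71-fold lower, with a ratio of 0.585 (0.536 to 0.639). Cdkn1a and Mdm2 had ratios of 1.08 (0.997 to 1.17) and 1.17 (0.995 to 1.38), and Trp53inp1 and Bbc3 of 1.15 (0.897 to 1.47) and 0.805 (0.602 to 1.07), so for these 4 the intervals span 1. The members thus fell into those whose tumour level differed (Ccng1, Phlda3, Aen, Zmat3 and Bax) and those whose ratio differed through the stroma (Cdkn1a, Mdm2 and Trp53inp1). The kind of tumour cell moved with this comparison: against the 36 epithelial tumour-like cells of late KIC alone, the log2 ratio was -1.11 for Aen, -0.70 for Ccng1, -0.62 for Phlda3, -0.51 for Bax and 0.02 for Zmat3, and 1 member was at least 2-fold lower.

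In late KPC over late KIC 1 of 9 measured members was higher, Cdkn1a at 2.94-fold (2.49 to 3.45), and 5 were lower, where 23.6% of 10688 genes were higher and 10.6% lower. Zmat3, Ccng1, Aen and Phlda3 (11 UMIs in late KPC) reached 20 UMIs only through late KIC, where they are high, so the count of 5 is no support. Against the epithelial tumour-like cells of late KIC alone, 1 member was lower. The lower ones were Zmat3 at 6.66-fold from 1 UMI (ratio 0.15, 0.00377 to 0.85), Ccng1 at 6.16-fold from 3 UMIs (ratio 0.162, 0.0333 to 0.478), Phlda3 at 4.69-fold, Aen at 3.92-fold from 3 UMIs (ratio 0.255, 0.0522 to 0.754) and Bax at 2.15-fold. In late KPC over late KPfC, the 2 tumours with altered Trp53, 1 of 9 was higher and 2 were lower, where 15.4% of 10917 genes were higher and 9.66% lower. Cdkn1a was the higher one at 2.72-fold (2.3 to 3.19). Ccng1 and Zmat3 were the lower ones, measured only through late KPfC, both with intervals that span 1 (0.368, 0.0751 to 1.1, and 0.386, 0.00958 to 2.26), as did those of the other 6. In late KIC over early KIC 3 of 9 were higher and 1 lower, where 13.5% of 11209 genes were higher and 27.3% lower. Phlda3 was 6.36-fold higher in late KIC (4.1 to 10.5), Ccng1 3.25-fold (1.92 to 6.0) and Aen 2.07-fold (1.21 to 3.84), and Trp53inp1 was 7.17-fold lower. Ccng1 and Aen reached 20 UMIs only through late KIC, where they are high, so the count of 3 is no support. The kind of cell also differed: most cells of late KIC were mesenchymal, and most of early KIC shared a cluster with normal pancreas.

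**Figure D4:**
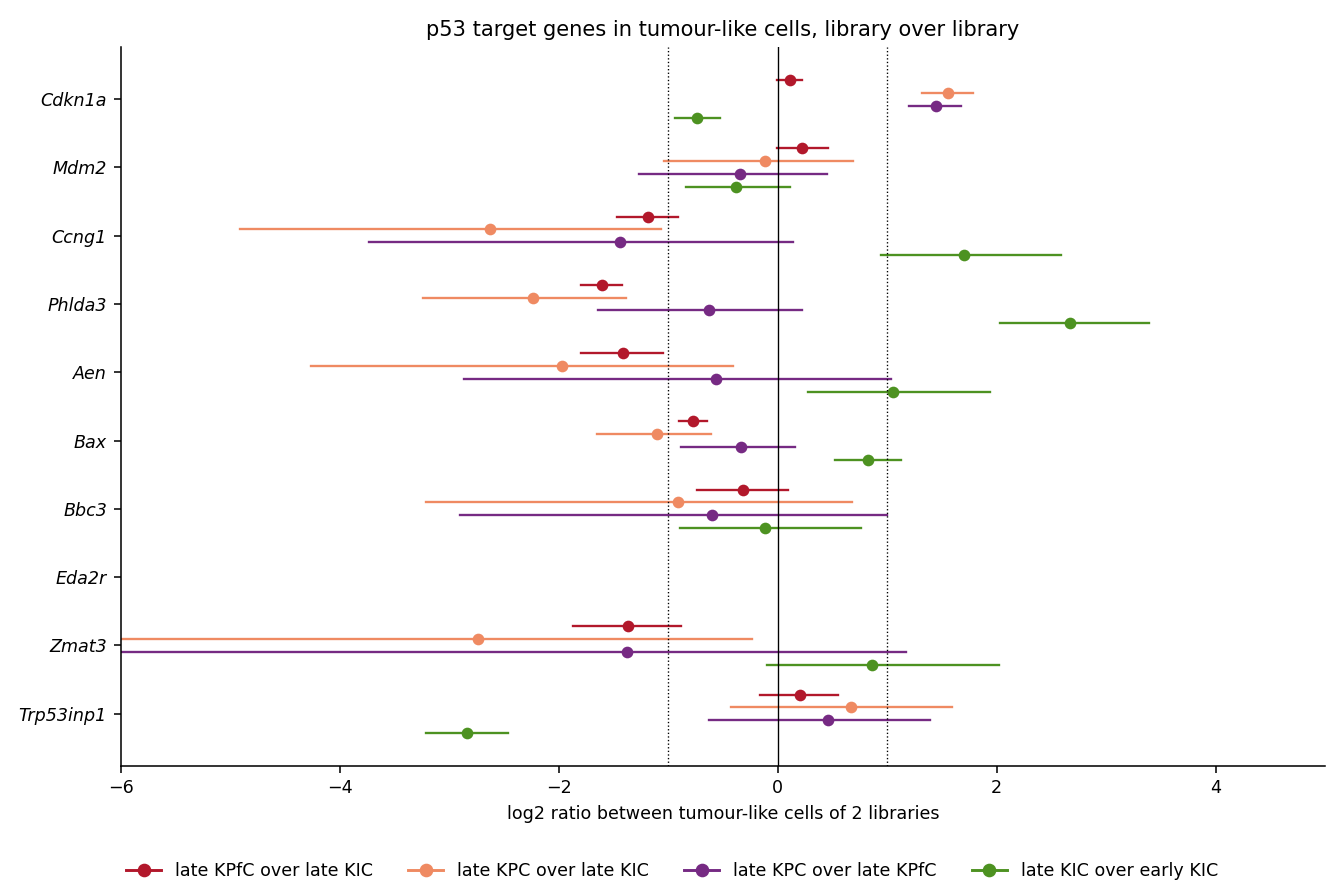
Log2 ratio of each p53 target gene between tumour-like cells of different libraries, with exact intervals at 95% and dotted lines at 2-fold. In late KPfC over late KIC, Cdkn1a (1.08-fold) and Mdm2 (1.17-fold) sit near 0 while Phlda3, Aen, Zmat3 and Ccng1 lie beyond 2-fold to the left; the late KPC points for Cdkn1a lie to the right in both comparisons.

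Macrophage-like cells held the highest Cdkn1a and Mdm2 of the 3 classes in every library. Cdkn1a stood at 1149 CPM in macrophage-like cells of late KPfC, 950 in late KPC, 1178 in late KIC, 726 in early KIC and 792 in normal pancreas. Tumour-like cells were 6.57-fold lower in late KPfC, 2.0-fold in late KPC, 7.28-fold in late KIC and 2.7-fold in early KIC. Mdm2 in macrophage-like cells stood at 403 CPM in late KPfC (393 to 414) and 352 in late KPC (323 to 383), against 159 in late KIC (143 to 175), 173 in early KIC (153 to 196) and 139 in normal pancreas (93.2 to 199.8). As in stroma, the late KPfC and late KPC libraries were the high ones in Mdm2, with intervals apart from those of the other 3. Tumour-like cells were lower in Mdm2 by 8.78-fold in late KPfC, 9.69-fold in late KPC, 4.04-fold in late KIC and 3.4-fold in early KIC.

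The other members went other ways. Phlda3 was 13.7-fold higher in tumour-like than in macrophage-like cells of late KPfC (10.2 to 19.0), 71.6-fold in late KIC (30.6 to 221) and 17.0-fold in early KIC, the last against 2 macrophage UMIs (4.13 to 149.9). Over all members, 3 of 9 were higher and 2 lower in tumour-like than in macrophage-like cells of late KPfC, where 35.5% of 12556 genes were higher and 16.0% lower. In late KPC 0 of 5 were higher and 3 lower, where 25.6% of 6876 genes were higher and 16.8% lower. In late KIC 5 of 9 were higher and 2 lower, where 33.6% of 11303 genes were higher and 14.7% lower, and in early KIC 3 of 8 were higher and 2 lower, where 40.8% of 8415 genes were higher and 13.5% lower. Cdkn1a and Mdm2 were the lower ones throughout, joined by Ccng1 in late KPC (5.67-fold, from 3 UMIs, ratio 0.176, 0.0355 to 0.536).

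The tumour-like cells of late KIC could be divided further. The 245 mesenchymal cells had 2.22-fold more Phlda3 than the 36 epithelial ones (1.55 to 3.31), at 149 against 67.0 CPM. The intervals of the other measured members spanned 1: Cdkn1a was at 0.821 (0.66 to 1.03), Ccng1 at 1.47 (0.894 to 2.6), Bax at 1.21 (0.96 to 1.55) and Zmat3 at 2.89 with 3 UMIs in the epithelial cells (0.968 to 14.2). Without the mesenchymal cells the log2 ratio of Phlda3 to stroma was -0.06, so its excess in late KIC rested on them. Cells in which Xist but no Y-linked gene was counted, compared with those of the reverse kind, had 195 against 126 CPM of Cdkn1a in tumour-like cells, a ratio of 1.55 (1.36 to 1.77). They had 104 against 183 CPM of Phlda3 (0.568, 0.496 to 0.651), and Aen stood at 0.639 (0.482 to 0.847). Over their own stroma, Cdkn1a was at 4.35 in Xist cells (3.07 to 6.37) and 1.98 in Y cells (1.39 to 2.91), and Phlda3 at 1.5 in Xist cells (1.12 to 2.05) and 2.45 in Y cells (1.78 to 3.48). Both genes were above the stroma in each set of cells, and Cdkn1a and Phlda3 were ordered in opposite ways between the sets.

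**Figure D5:**
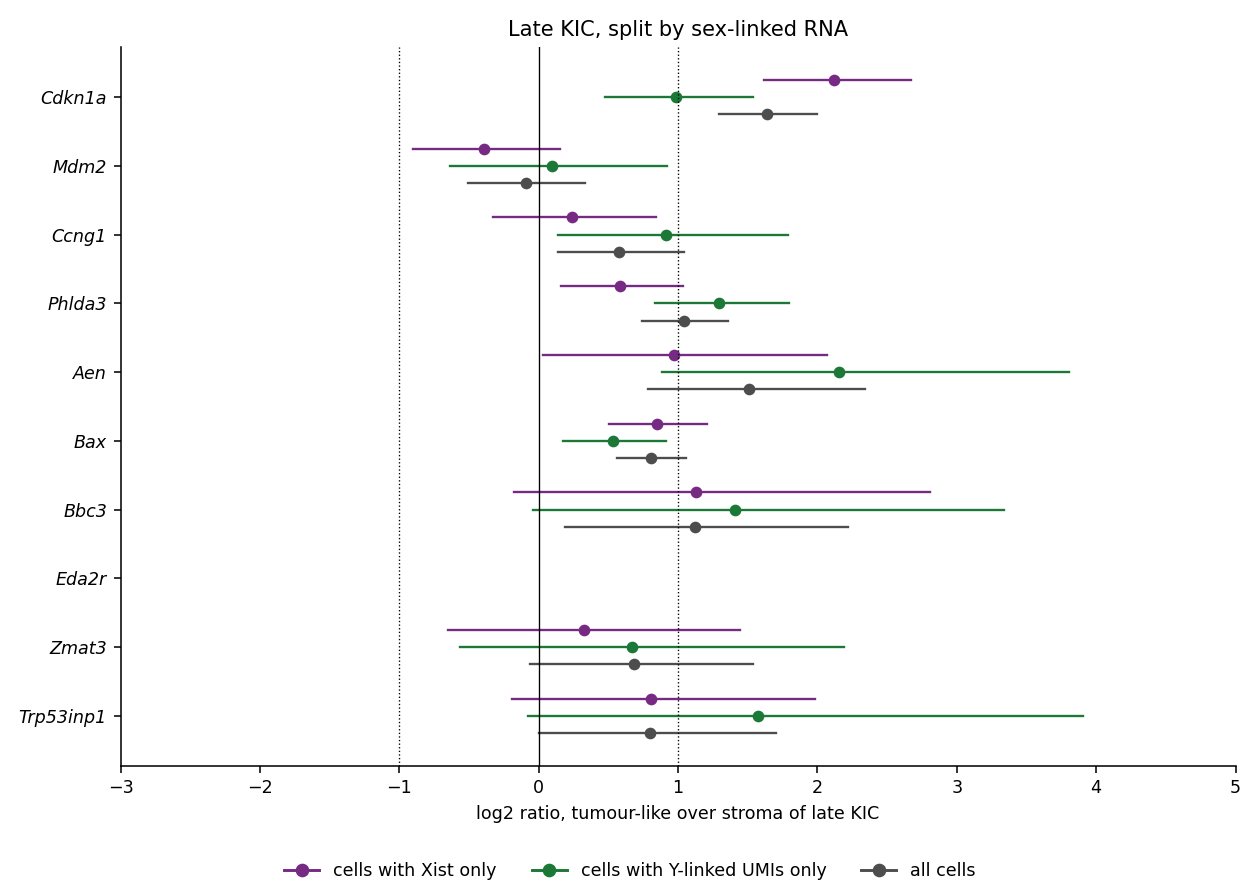
Log2 ratio of each p53 target gene in tumour-like cells over stroma of late KIC, for cells with Xist only, cells with Y-linked UMIs only and all cells, with exact intervals at 95%. Cdkn1a lies further right in Xist cells (4.35-fold) than in Y cells (1.98-fold), and Phlda3 less far right in Xist cells (1.5-fold) than in Y cells (2.45-fold).

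Other genes described as p53 targets, 36 of 38 listed being in the gene table, were read in the same way. In tumour-like cells over stroma, 8 of 33 measured were higher and 10 lower in late KPfC (median log2 ratio -0.03), beside 18.2% and 15.8% of all genes, and 7 of 31 higher and 7 lower in late KIC (0.12), beside 19.0% and 13.3%. In late KPC 6 of 15 were higher and 3 lower (0.37), beside 25.9% and 14.5%, and in early KIC 7 of 28 higher and 4 lower (0.43), beside 23.1% and 14.8%. For the ratio of late KPfC over that of late KIC, 1 of 31 was higher and 8 were lower, beside 11.3% and 13.2% of all genes, with a median of 0.04 beside -0.07 over all genes. By role, 6 of 9 metabolism and autophagy genes were lower and 2 higher in tumour-like cells of late KPfC (-1.51). Their median was also negative in late KPC (-1.59), late KIC (-0.61) and early KIC (-0.4). Of 5 DNA repair and nucleotide genes, 3 were higher and 0 lower in late KPfC (1.24), with medians of 0.51 in late KIC and 0.69 in early KIC. Neither sign was thus particular to late KPfC. The medians of cell cycle arrest, cell death and feedback genes in late KPfC were -0.34, 0.21 and -0.01.

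Several of these stood far above or below their stroma. Sfn, a 14-3-3 protein of epithelia, was higher in tumour-like cells than in stroma by 13.3-fold in late KPfC (10.3 to 17.5), by 253-fold in late KPC against 1 stroma UMI (44.9 to 10056) and by 36.6-fold in late KIC (6.49 to 1452). Perp, a protein of cell contacts in epithelia, was 8.41-fold higher in late KPfC (6.27 to 11.5), at least 20.8-fold in late KPC against 0 stroma UMIs (exact bound 16.2) and 11.7-fold in early KIC (6.1 to 24.3). Polk, a DNA polymerase that copies past lesions, was 21.8-fold higher in late KIC (3.83 to 867), and Plk2, a kinase, 6.69-fold higher in early KIC (4.94 to 9.15). Steap3, an iron reductase, was lower in tumour-like cells by 22.9-fold in late KPfC (8.2 to 88.9), 25.5-fold in late KIC (14.5 to 48.0) and 31.0-fold in early KIC (15 to 77.4). Ak1, a nucleotide kinase, was lower by 13.9-fold in late KPfC (9.54 to 20.8) and, from 2 UMIs, 8.12-fold in late KPC (2.0 to 71.3), and Dram1, an autophagy gene, by 22.3-fold in late KIC (11.7 to 46.1).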

How the data were processed

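The deposited tables hold UMI counts per gene and cell barcode, which the authors produced with Cell Ranger 2.1.1 on GRCm38, per the submitters' processing notes; the sources used here do not give reads per UMI, annotation release or strand use. A cell was kept if it had 200 or more genes and 500 or more UMIs, with no more than 20% of them mitochondrial (10718 cells). Counts were scaled to 10000 per cell and log-transformed, and 2000 variable genes and 30 principal components were used for Leiden clustering (resolution 1), with no batch correction and no removal of doublets. Of 33 clusters 2 stayed unnamed. The analysis used Python 3.11.15, scanpy 1.11.5, leidenalg 0.10.2, numpy 2.4.6, scipy 1.17.1 and pandas 2.3.3; figures used matplotlib 3.10.9.

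CPM are the summed UMIs of a gene in a class of a library over all UMIs of that class. Intervals are exact Poisson for levels, exact conditional binomial for ratios and exact noncentral hypergeometric for ratios of ratios, all at 95%. A count of 0 was set to 3 UMIs. Ratios needed 30 cells per class and 20 UMIs over both classes, or in each library for ratios of ratios; a 2-fold ratio was the call. With 1 library per group no test between conditions was run. The procedure was checked on simulated data. Of other p53 target genes, the 2 furthest above and the 2 furthest below in each tumour library were chosen for naming; 1 of them is not reported here. The members, gene lists, markers and rules were chosen with earlier results of these data known.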

Additional observations from a re-analysis of the deposited data

Results flagged for a closer look

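For 3 members the tumour over stroma ratio lay wholly above 1 in one library and wholly below 1 in another, counting error included. With 1 library per group none of these differences was tested across animals. The log2 ratio of Cdkn1a was -0.39 in late KPfC, against 1.12 in late KPC, 1.64 in late KIC and 0.60 in early KIC. That of Ccng1 was -1.11 in late KPfC and -2.15 in late KPC, which rests on 3 UMIs in tumour-like cells, against 0.58 in late KIC; without the mesenchymal tumour-like cells late KIC was at 0.05, and in its cells with Xist only the ratio was 1.18 (0.797 to 1.79). That of Phlda3 was 1.04 in late KIC, against -2.03 in early KIC; without the mesenchymal tumour-like cells late KIC was at -0.06.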

How the results depend on the processing

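No paired analysis was possible because each group has 1 library. Of 48 called values of single members, 46 kept their sign in every setting in which the member was still measured. Of all 93 values, called or not, 71 did. The 2 called values that reversed did so without the mesenchymal tumour clusters. They were Phlda3 over stroma in late KIC (-0.06 on the log2 scale) and Zmat3 in tumour-like cells of late KPfC over late KIC (0.02). The number of settings differed between members: over stroma in late KPC it was 8 for Ccng1 and 13 for Cdkn1a. The choice of stroma does not enter the ratios between tumour-like cells. Ccng1 in late KPfC over late KIC thus stayed at -1.18 in both stroma settings. The counts below are of members at least 2-fold higher or lower; the causes were not tested unless fewer cells or UMIs are the setting itself.

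Cells thinned to 1000 UMIs left fewer members measurable. Over stroma, late KPfC then had 1 lower (median log2 ratio 0.05), late KPC 0 lower (0.53), late KIC 1 higher and early KIC 1 higher and 1 lower. Between tumour-like cells, late KPfC over late KIC had 1 lower, late KPC over late KIC 0 higher and 2 lower, and late KIC over early KIC 1 higher. For ratios relative to late KIC, late KPfC had 1 lower, late KPC 0 lower and early KIC 0 higher and 1 lower.

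The choice of stroma moved late KPC most. Without stroma with mesothelial markers, with or without the minimum of 30 cells, it had 1 lower over stroma (median 0.54) and 1 lower relative to late KIC, and early KIC had 1 lower over stroma; late KPfC, which needs the minimum lifted, had a median of -0.80. With only such stroma, late KPC had 0 higher and 1 lower, and early KIC relative to late KIC 2 higher and 2 lower. These last 2 settings, and the subtraction of macrophage RNA by C1q, were added after seeing the data.

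Without the mesenchymal tumour clusters, late KPfC and late KPC over late KIC had 1 lower each between tumour-like cells, and early KIC relative to late KIC had 3 lower. With late KIC cells with Xist only, late KIC had 2 higher over stroma and early KIC relative to it 3 lower; with Y-linked UMIs only, late KIC over early KIC had 2 lower. Centred on the median gene, late KPC had 0 higher, late KIC 2 higher and early KIC 4 lower over stroma, and late KIC over early KIC 5 higher.

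With totals freed of mitochondrial, ribosomal, haemoglobin and acinar genes, late KPfC had 2 lower. A minimum of 50 UMIs gave 1 lower over stroma in late KPC, 1 higher and 1 lower in early KIC, and 1 lower for late KPC over late KPfC and relative to late KIC. Without the top 5% of cells by UMIs, late KPC had 1 lower. With the mean of CPM over cells, late KPC over late KPfC had 5 lower. At 1.5-fold, late KIC had 7 higher and early KIC 4 lower over stroma; late KPC had 2 higher over late KIC and 4 lower over late KPfC, and late KIC over early KIC 5 higher and 2 lower. Depth limits late KPC most, where 61 tumour-like cells left 5 members unmeasured over stroma.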

Other observations

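Over all 34 groups of a cell class in a library with at least 30 cells, the members had their highest levels in different classes. Trp53inp1 was highest in B or plasma-like cells of late KIC, at 462 CPM (384 to 551) in 32 cells, with tumour-like cells of early KIC next at 126 CPM. Bbc3 was also highest there, at 63.9 CPM, followed by dendritic-like cells of late KPC at 44.7 CPM. Bax was highest in dendritic-like cells of late KPfC (240.3 CPM) and lowest in acinar-like cells of normal pancreas (11.8 CPM), where Cdkn1a had 11.9 CPM. Ccng1, Phlda3 and Aen were highest in tumour-like cells of late KIC, at 51.6, 144 and 32.9 CPM, and Eda2r in stroma of late KPfC at 7.9 CPM.

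The correlation of log2 levels, with 10 CPM added, between pairs of members over these 34 groups ran from -0.31 (Cdkn1a and Trp53inp1) to 0.75 (Cdkn1a and Bax), with a median of 0.18 over 45 pairs (Pearson's r). The genes outside the lists whose levels were most like the mean of the members' standardised levels were Emc7 (0.89), Ndufa12, Calr, Ndufa13 and Tmem165 (0.88 each). Groups of 1 library share its depth and preparation, so these values are descriptions.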
